A study of Mus musculus with 2 samples.

Results

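The core pluripotency genes Pou5f1, Sox2, Sall4, Utf1, Dppa2, Dppa4, Tdgf1, Zfp281 and L1td1, together with the RNA-binding protein gene Lin28a, were compared between mouse embryonic stem cells that overexpress the long noncoding RNA lincU and control cells. Every probe set that the array annotation names to one of these 10 genes alone was taken. This gave 10 probe sets for 8 of the 10 genes, out of 15273 probe sets and 10313 genes named in this way. Tdgf1 and L1td1 had no such probe set among those analysed here and were not measured. Each group was 1 Affymetrix 3' array, so the values describe these 2 arrays, with no replicate, test or standard error behind any difference.

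Both arrays were made from the 46C line, a mouse embryonic stem cell line with a green fluorescent protein reporter in the Sox1 locus. One culture was the control and the other overexpressed lincU. Both were grown on feeder cells in medium with 15% serum and 1000 U/ml of leukaemia inhibitory factor, and the feeder was removed before RNA was taken. How lincU was expressed, what the control cells carried and whether either culture was a clone are not given in the sources used here.

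Pluripotency, the capacity of a cell to form all lineages of the embryo, rests on a small group of transcription factors. OCT4 (the product of Pou5f1) and SOX2 bind DNA side by side at many regulatory regions of embryonic stem cells. They are present both in naive cells, which resemble the epiblast before implantation, and in primed cells, which resemble it afterwards. LIN28A keeps the let-7 microRNAs from maturing, and its transcript is known to become more abundant when naive cells move towards the primed state. DPPA2 and DPPA4 act together on chromatin, UTF1 is a chromatin-bound protein, and CRIPTO (the product of Tdgf1) is a coreceptor of the ligand NODAL.

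Lin28a differed most of the measured genes and had lower signal in the overexpressing cells on both of its probe sets. On the brighter one its log2 signal was 13.06 in control cells against 12.53 in overexpressing cells, 1.45-fold lower. On the dimmer one it was 9.69 and 8.24, 2.73-fold lower. Utf1 was also lower, by 1.35-fold, and Dppa2 was 1.28-fold higher. The central factors Pou5f1, Sox2 and Sall4 lay within 1.16-fold of control on their brightest probe set.

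**Figure D1:**
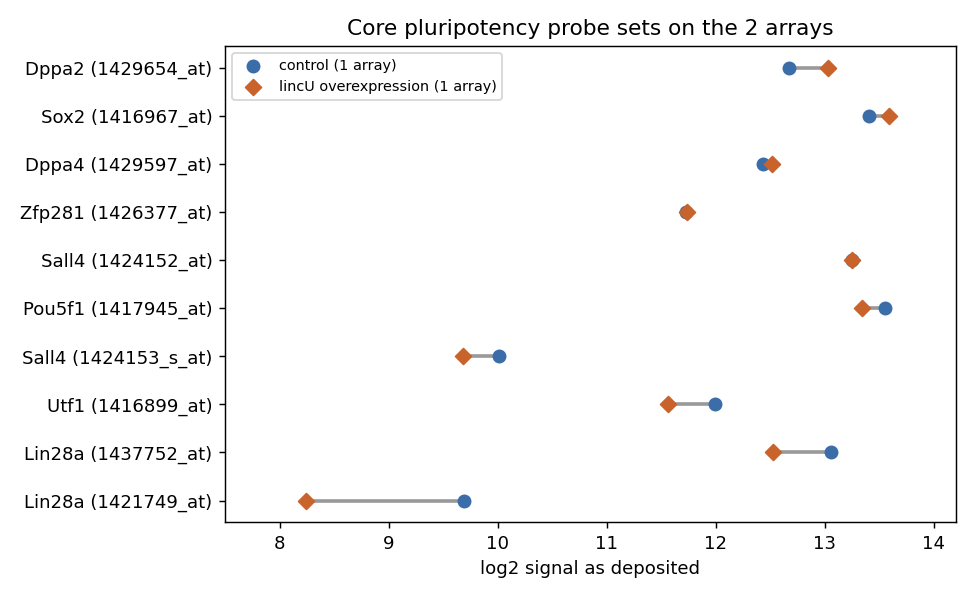
Log2 signal (horizontal axis) of each probe set of the core pluripotency genes on the control array (circles) and the lincU overexpression array (diamonds), 1 array per group, ordered by their difference. The Lin28a probe sets show the widest separation, with log2 differences of -0.53 and -1.45, and the main Sall4 and Zfp281 probe sets overlap.

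A gene with several probe sets was represented by the one of highest mean signal. A probe set was called bright if the higher of its signals reached the median of that array, 7.96 for control and 7.90 for overexpression. All 10 probe sets were bright, and none was near the level of 5.73 for control or 5.65 for overexpression under which signals were treated as background. Of the 8 represented genes none was at least 2-fold lower, against 1.3% of the 5609 bright genes, and none at least 2-fold higher, against 1.53%. At 1.5-fold, 0 of 8 were lower, against 6.69% of bright genes, and 0 of 8 higher, against 4.65%. Counts of 0 among 8 genes lie near these backgrounds and are not read as a result about the core genes. Their median log2 difference was 0.0055, beside 0.0010 for all bright genes, and their median size of difference was 0.20, beside 0.19. Counted by probe set, 1 of 10 was at least 2-fold lower, the dimmer one of Lin28a, where 1.35% of 7983 bright probe sets were.

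**Figure D2:**
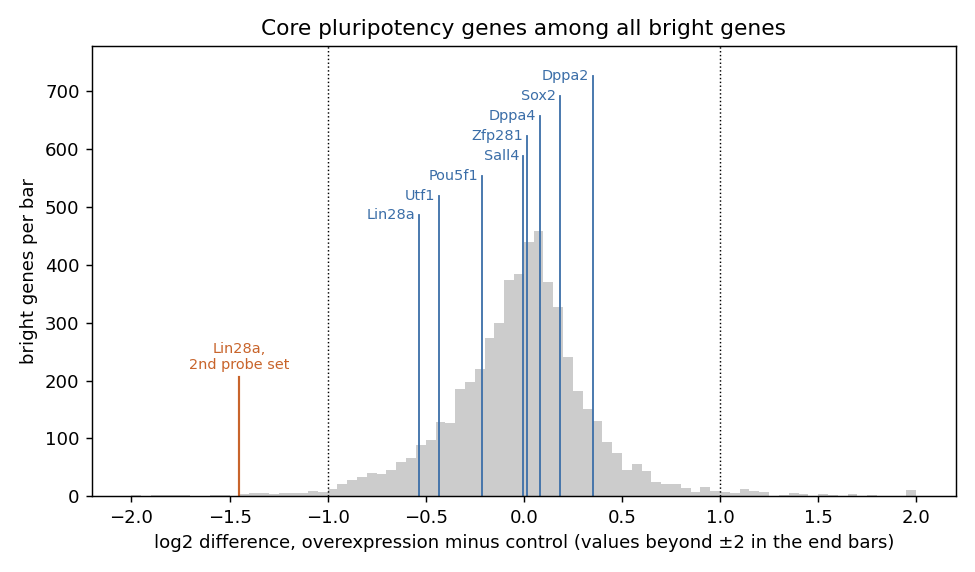
Number of bright genes (vertical axis) by log2 difference, overexpression minus control, in grey, with the represented core pluripotency genes as labelled lines whose height has no meaning and dotted lines at 2-fold. The 8 genes lie between -0.53 and 0.35 inside the main body of the distribution, and the second Lin28a probe set lies at -1.45.

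Pou5f1 encodes OCT4, the POU-domain factor without which the inner cell mass is not maintained. Its log2 signal was 13.55 in control cells against 13.34 in overexpressing cells, a difference of -0.21. The overexpression array was the lower one, but 24.8% of bright probe sets had a difference as low or lower. Sox2, which encodes the HMG-box partner of OCT4, had log2 signals of 13.41 in control cells against 13.59 in overexpressing cells. Its difference of 0.18 went the other way, and 24.8% of bright probe sets had one as high or higher. Both differences were smaller than 0.23, the SD of the log2 difference between bright probe sets of the same gene over the 1732 genes with several. That SD holds no variation between cultures.

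Sall4 encodes a zinc finger factor that binds OCT4 and recruits the NuRD corepressor complex. Its brighter probe set had log2 signals of 13.25 on both arrays, with a difference of -0.0036 that turned to 0.051 when the arrays were centred on their medians. A second probe set, of a type that can bind several related transcripts, had 10.02 in control cells against 9.68 in overexpressing cells, a difference of -0.33. A gap of 0.33 or more between probe sets was common, being present in 345 of 1265 genes with 2 bright probe sets. Zfp281 encodes a zinc finger factor that takes part in the exit from the naive state. Its log2 signals were 11.73 in control cells against 11.74 in overexpressing cells, and the difference of 0.014 became -0.026 with quantile normalization and -0.0060 with the trend on signal subtracted.

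Utf1, a target of OCT4 and SOX2 that is switched off early in differentiation, had log2 signals of 11.99 in control cells against 11.56 in overexpressing cells. The overexpression array was lower by 0.43 on the log2 scale, and 11.3% of bright probe sets were as low or lower. Dppa2, whose product binds DNA through a SAP domain, had log2 signals of 12.68 and 13.03. Here the overexpression array was higher by 0.35, and 12.1% of bright probe sets were as high or higher. Dppa4, its neighbour on chromosome 16 and partner in the same complex, had 12.43 in control cells against 12.52 in overexpressing cells. Its difference of 0.084 had the same sign as that of Dppa2 and was smaller than the SD between probe sets. Lin28a, Utf1 and Dppa2 were the 3 of 8 genes whose difference exceeded that SD, as did 42.0% of bright genes.

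LIN28A acts on let-7 in a sequence-specific way, and let-7 sequences are shown here as background. The let-7 target genes described further on come from a list of known targets, and no transcript was searched for the seed. The zinc knuckles of LIN28A bind the letters GGAG in the loop of the let-7 hairpin. The bound hairpin is then tailed with uridines and degraded. The array did not measure let-7. Of the 12 let-7 and miR-98 hairpins of the RefSeq table (GRCm38.p6), 9 hold GGAG between their arms. The search ran on the RNA strand alone, and 44.5% of all 1005 RefSeq hairpins hold these letters at any place. In the hairpins below GGAG is in capitals, and let-7c-2 is shown as one of the 3 without it. They lie at chr9:106178840-106178927 on the plus strand (let-7g), chr13:48538179-48538272 on the minus strand (let-7a-1) and chr15:85706603-85706697 on the plus strand (let-7c-2).
let-7g: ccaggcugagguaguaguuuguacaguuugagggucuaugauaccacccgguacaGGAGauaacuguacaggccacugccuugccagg
let-7a-1: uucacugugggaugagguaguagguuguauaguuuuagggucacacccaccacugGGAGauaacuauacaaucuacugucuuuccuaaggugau
let-7c-2: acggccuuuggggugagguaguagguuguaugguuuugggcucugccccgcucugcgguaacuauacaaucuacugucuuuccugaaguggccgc

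The mature microRNAs cut from the 5' arm share 1 seed, bases 2 to 8, which pairs with target transcripts. Among the RefSeq entries 9 distinct sequences of let-7 and miR-98 carry it, and 4 are shown with the seed in capitals.
let-7a: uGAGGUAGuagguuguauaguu
let-7g: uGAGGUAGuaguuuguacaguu
let-7d: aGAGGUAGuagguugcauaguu
miR-98: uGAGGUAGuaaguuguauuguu

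The 2 Lin28a probe sets agreed in sign but not in size. The brighter one differed by -0.53, and 7.70% of bright probe sets were as low or lower. The dimmer one differed by -1.45, and 0.363% were as low or lower. Among the 1265 genes with 2 bright probe sets, 42, or 3.32%, had both at or below the smaller Lin28a difference, Lin28a included. A gap at least as large as the 0.92 between its probe sets was present in 26 of the 1265 genes, or 2.06%, again with Lin28a included. The median gap was 0.17. With the probe sets averaged the Lin28a difference was -0.99, past 1.5-fold, so its size depends on the probe set taken. The annotation names the transcripts behind the probe sets, but which part of the Lin28a transcript each one covers was not used here.

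**Figure D3:**
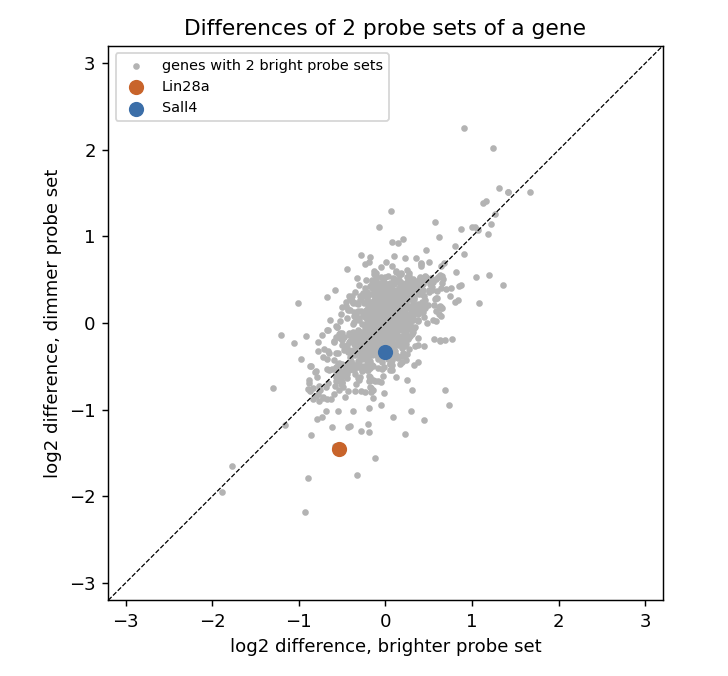
Log2 difference, overexpression minus control, of the dimmer against the brighter probe set of each of 1265 genes with 2 bright probe sets, with the dashed line where they are equal. Lin28a lies at -0.53 and -1.45, well under the line, and Sall4 at -0.0036 and -0.33, within the cloud.

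The bright genes whose pair of log2 signals lay nearest to that of the brighter Lin28a probe set were Supt16, Rheb and Apex1, at distances of 0.025, 0.092 and 0.14 over the 2 arrays. With 2 arrays this likeness is only that of a level and 1 difference. Their log2 differences were -0.54, -0.40 and -0.72. Supt16 and Apex1 lie on the part of chromosome 14 whose 137 bright genes had a median difference of -0.59. Apex1 is also among the 42 genes with both probe sets at or below the smaller Lin28a difference. How many of those genes lie on that part was not counted.

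Neighbouring genes on chromosomes 14 and 6 differed together in these arrays, so each gene was set beside the 5 bright genes on either side of it in RefSeq gene order. None of the 10 genes lies in the stretches of chromosomes 14 or 6 concerned. Around Lin28a on chromosome 4 the 10 neighbours had a median log2 difference of -0.080 and ran from -0.86 to 0.46, with 6 lower and 4 higher. Relative to that median Lin28a lay at -0.45. Its nearest neighbours were not past 1.5-fold on their represented probe sets. The one on its left, Arid1a, a chromatin remodelling gene named after its value was seen, differed by -0.52. A second bright probe set of Arid1a differed by -0.70, which is past 1.5-fold. Around Utf1 on chromosome 7 the neighbours ran from -0.49 to 0.19 with a median of 0.051, so that Utf1, at -0.43, lay near the lowest of them.

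Around Pou5f1 on chromosome 17, 9 of 10 neighbours were lower and their median was -0.15, close to the -0.21 of Pou5f1 itself. Around Sox2 on chromosome 3, 8 of 10 were higher with a median of 0.068. Dppa2 and Dppa4 share their neighbours, which had a median of -0.0027 with 5 lower and 5 higher. The medians around Sall4 on chromosome 2 and Zfp281 on chromosome 1 were 0.079 and 0.076. No bright gene directly beside one of the 8 genes was past 1.5-fold on its represented probe set, though the second Arid1a probe set was.

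**Figure D4:**
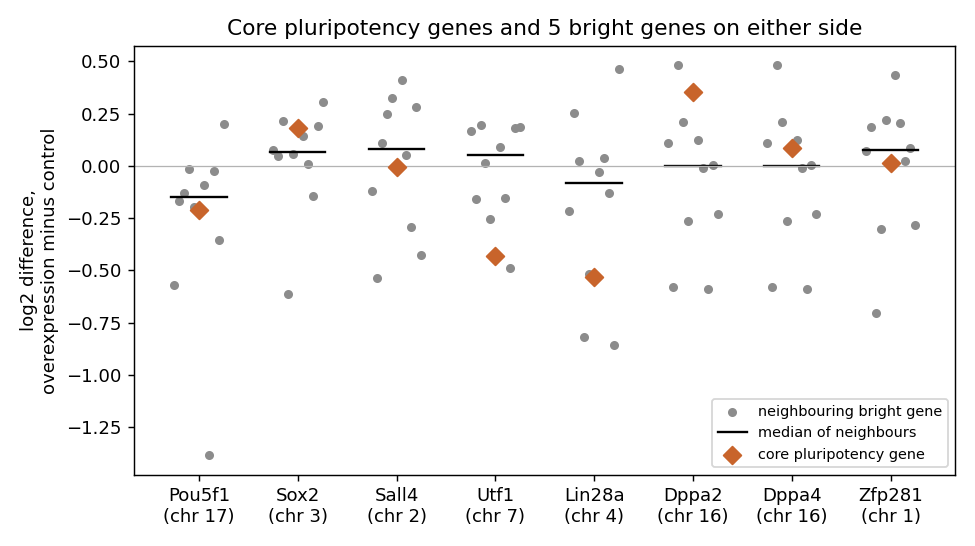
Log2 difference, overexpression minus control, of each core pluripotency gene (diamond) and of the 5 bright genes on either side of it (points, in gene order), with the median of the neighbours as a bar. Relative to the median of their neighbours, Lin28a lies at -0.45, Utf1 at -0.48, Dppa2 at 0.36 and Pou5f1 at -0.061.

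Genes bound by OCT4 and SOX2 in embryonic stem cells were taken as their targets. Of 20 listed, 14 were measured and all were bright. On the overexpression array 10 were higher and 4 lower, with a median log2 difference of 0.23, where 50.2% of all bright genes were higher with a median of 0.0010. None was past 2-fold, and 2 of 14 were at least 1.5-fold higher, where 4.65% of bright genes were. These were Esrrb, an orphan nuclear receptor gene of naive cells, at 0.65 (0.17 on a second bright probe set), and Tcl1, a coactivator of AKT, at 0.61. Nanog and Dppa3, named after their values were seen, differed by 0.57 and -0.38 and lie in the distal stretch of chromosome 6, whose 97 bright genes had a median of 0.37. The signals of Pou5f1 and Sox2 themselves differed by -0.21 and 0.18.

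Of the LIN28 and let-7 pathway, 5 of 12 genes were measured and 4 of them bright, and none was past 1.5-fold. These 4, named after their values were seen, were Dicer1, which encodes the enzyme that cuts let-7 from its hairpin, at -0.41, Tut7, which encodes a uridyl transferase of let-7 hairpins, at -0.30, Ago2, which encodes the effector of microRNAs, at -0.24, and the DICER partner gene Tarbp2 at 0.063. Their median was -0.27, and that of the bright genes was -0.14 with probe sets averaged. A second bright probe set of Tarbp2 differed by 0.45. Lin28b, the close relative of Lin28a, and the tailing enzyme gene Tut4 were among the genes not measured.

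Transcripts with known let-7 sites are released when LIN28A is active. Of 16 listed, 12 were measured and all were bright. On the overexpression array 8 were lower and 4 higher, with a median of -0.12, where 49.8% of all bright genes were lower. None was past 2-fold, 2 of 12 were at least 1.5-fold lower, where 6.69% of bright genes were, and 1 of 12 was at least 1.5-fold higher, where 4.65% were. Hmga2, a chromatin architecture gene, had log2 signals of 9.71 in control cells against 8.82 in overexpressing cells. Plagl2, a zinc finger gene, had 8.20 and 7.58, and its difference was -0.27 when its probe sets were averaged. Ccnd2, which encodes cyclin D2, went the other way, from 11.31 to 12.09, with its 6 bright probe sets between 0.73 and 1.27. It lies in the same stretch of chromosome 6 as Nanog.

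The NuRD complex, which SALL4 and ZFP281 both bind, had 12 of 14 subunit genes measured, all bright. On the overexpression array 10 were lower and 2 higher, where 49.8% of all bright genes were lower. The lower ones include Rbbp4, named after its value was seen, at -8.4e-05. The median of the 12 was -0.13. With the arrays centred on their medians it was -0.077, where 42.3% of bright genes were lower. The 12 ranged from -0.52 to 0.050, and none was past 1.5-fold on its represented probe set. Mbd2 differed by -0.14 on that probe set and by -0.87 on a second bright one. Chd4 differed by -0.092 and 0.075 in the same way. Of the relatives and partners of Zfp281, 3 of 7 were measured, between -0.14 and 0.046.

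Tdgf1 itself was not measured, but 14 of 20 genes of the NODAL and CRIPTO pathway were, 12 of them bright. Of these 6 were lower and 6 higher, with a median of -0.061 that became 0.092 with brightness at the 75th percentile. Lefty1, which encodes an inhibitor of NODAL, was the 1 of 12 at least 2-fold lower, where 1.3% of bright genes were, with log2 signals of 12.83 in control cells against 11.38 in overexpressing cells. Foxh1, which encodes the DNA-binding partner of SMAD2, made 2 of 12 at least 1.5-fold lower, where 6.69% were, and had 9.35 and 8.55, with 3 bright probe sets between -1.09 and -0.65. The ligand gene Nodal, named after its value was seen, had 11.33 and 11.51; this difference of 0.18 is smaller than the SD between probe sets. Smad7, which encodes an inhibitor of the pathway inside the cell and was also named after its value was seen, differed by 0.50.

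DPPA2 and DPPA4 switch on genes of the early cleavage embryo. Of 18 genes listed as dependent on DPPA2 or DPPA4, not all of the cleavage stage, 6 were measured, of which 3 were bright. Usp17la, a deubiquitinase gene, had log2 signals of 8.04 in control cells against 9.84 in overexpressing cells. It was the 1 of 3 bright genes at least 2-fold higher, where 1.53% of all bright genes were. The other bright ones, Eif1a and Ddx4, named after their values were seen, differed by 0.064 and -0.061. The bright Dppa3 and Dppa5a, which share the name but not the family, differed by -0.38 and -0.021.

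Among relatives of the factors, Sall2 had log2 signals of 8.81 in control cells against 7.89 in overexpressing cells, and lies on the stretch of chromosome 14 with a median of -0.59. Pou3f1, which encodes the POU factor of the primed epiblast known as OCT6, had 8.96 and 8.21. Apart from Pou5f1 itself, it was the only bright one of 4 measured POU genes. The bright SOX genes Sox3, Sox4 and Sox11, named after their values were seen, differed by 0.32, 0.43 and -0.11. Sox1, which marks neural precursors, was under the background level on both arrays, at 3.30 and 2.92.

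**Figure D5:**
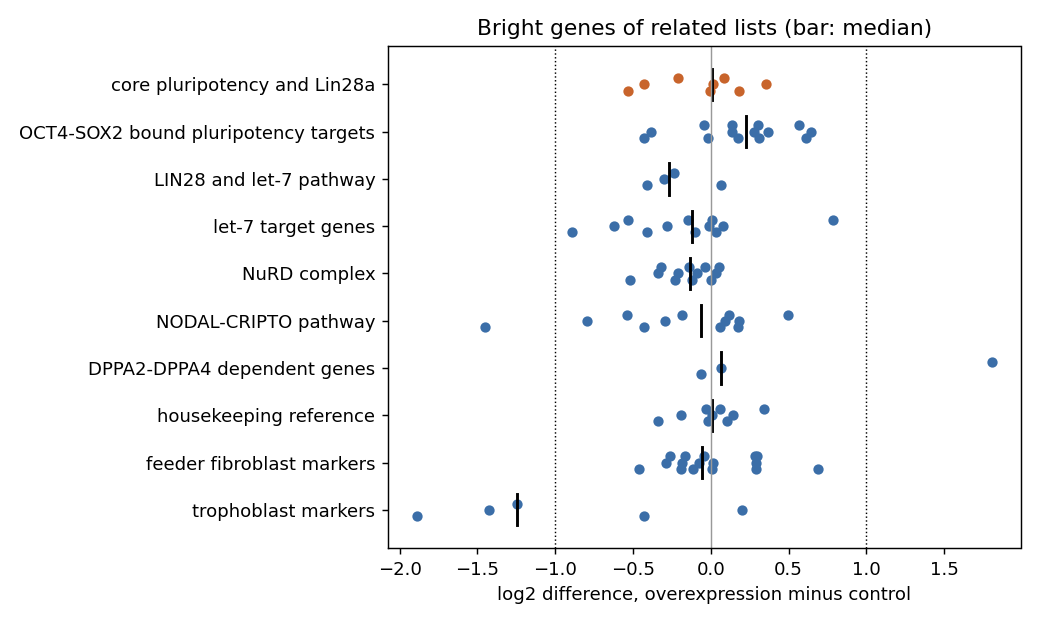
Log2 difference, overexpression minus control, of the bright genes of the core pluripotency list (top) and of related lists, with the median of each as a bar and dotted lines at 2-fold. The core genes centre on 0.0055, the OCT4 and SOX2 targets on 0.23, and the 5 bright trophoblast markers on -1.25.

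Both arrays carried the transcripts that define embryonic stem cells, with Pou5f1, Sox2, Utf1, Nanog, Zfp42, Fgf4, Klf4 and Esrrb all bright. In RNA from whole cultures, fewer cells of a type and less RNA per cell cannot be told apart. Of 21 measured feeder fibroblast markers 16 were bright, 9 lower and 7 higher. The log2 of the summed signals of all 21 was 15.23 in control cells against 15.22 in overexpressing cells. Vim, Fn1 and Sparc, named after their values were seen, had the highest signals in that sum. They differed by -0.073, 0.29 and -0.19. The only 1 of the 16 bright markers past 1.5-fold was the receptor gene Pdgfrb at 0.69. It turned to -0.15 with its probe sets averaged and to -0.98 when probe sets that can bind several transcripts were left out. Of 11 measured trophoblast markers 5 were bright and 4 of these lower, where 49.8% of all bright genes were lower. Cdx2, Krt8 and Krt18, at -1.89, -1.43 and -1.25, were the 3 at least 2-fold lower, where 1.3% of bright genes were. Eomes, named after its value was seen, differed by 0.20, and by -0.35 on a second bright probe set. The median of the 5, -1.25, was -0.43 over all 11 and -0.93 with probe sets averaged. The log2 of the summed signals of all 11 trophoblast markers was 12.18 in control cells against 11.37 in overexpressing cells. Their part in the lower Lin28a and Utf1 signals was not tested.

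Of 8 measured neural markers 4 were bright, with Pax6 at 0.88 (0.32 with its probe sets averaged), Tubb3 at 0.62 and Nes at -0.66. Of 13 endoderm markers 6 were bright, with Lama1 at 1.04, Col4a1 at 0.68 and Amn at -0.76. Of 6 mesoderm markers 1 was bright, and it was not past 1.5-fold. On their represented probe sets the 9 measured housekeeping reference genes lay between -0.34 and 0.34 with a median of 0.010. The represented Lin28a and Utf1 probe sets lay below that range and that of Dppa2 just above it. Second bright probe sets of the housekeeping genes Gusb, at -0.71, and Tfrc, at 0.40, lay beyond these represented values on either side.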

How the data were processed

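Total RNA was labelled with biotin after 3' amplification and hybridised to Affymetrix arrays, per the labels' protocols. Values were deposited by the authors as a log2 signal for each probe set. MAS5 and affy are named in the submitters' processing notes, with no version or role, while their scaling target is not stated there. The table held 16994 probe sets. Names came from the platform annotation and were updated through gene IDs with RefSeq (GRCm38.p6): 15273 probe sets had 1 name, 501 several and 1156 none, and 64 were array controls. Of those with 1 name, 15252 matched RefSeq.

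Signals were used with no further scaling. Those under the 25th percentile of an array were raised to it, and genes under it on both arrays were given a difference of 0. The alternatives were other scalings (centring, quantile, lowess with statsmodels 0.14.6), floors, brightness rules and ways to combine probe sets. Rules were tested on simulated arrays with shifts set past 2-fold. That does not bear on smaller differences, such as those of the represented genes studied. The genes, lists and rules were chosen with earlier results of these data known. Genes named were the 10 studied, up to 4 bright genes past 1.5-fold per list and the 3 genes nearest to Lin28a. A bright gene directly beside a studied gene was to be named where past 1.5-fold, which none was on its represented probe set. The number of arrays, 1 per group, limits the precision.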

Additional observations from a re-analysis of the deposited data

How the results depend on the processing

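No paired analysis was possible because each group had 1 array. Under 8 alternative settings Lin28a, Utf1 and Pou5f1 stayed lower and Sox2, Dppa2 and Dppa4 higher, and no gene of the 8 was past 2-fold in any of 10. Lin28a ran from -0.99 to -0.48. With probe sets averaged its difference was -0.99 and 1 gene, Lin28a, was at least 1.5-fold lower; this average takes in the dimmer probe set. Its dimmer probe set alone ran from -1.45 to -1.28. Sall4 ran from -0.17 to 0.051 and Zfp281 from -0.026 to 0.069, each on both sides of 0, and so did the median of the 8 genes, from -0.076 to 0.060. Pdgfrb reversed to -0.15 with probe sets averaged and to -0.98 without those of shared or mixed type; the cause was not tested. The settings for lists and their genes were added after seeing the data. Centring moved the median of all bright genes to 0.056, and the split of bright genes from 49.8% lower to 42.3%. The counts of 2-fold differences over all bright genes, 73 lower and 86 higher, were 226 and 153 with no brightness rule, which let in dim genes and turned the balance. They were 39 lower and 64 higher with a pseudocount of 64, and 15 and 37 with brightness at the 75th percentile, where fewer genes were compared.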
